A study of Mus musculus with 6 samples.

Results

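Lysosomal hydrolases and membrane proteins were examined in the adult retina of mice that lack Trim9, an E3 ubiquitin ligase, and of their wild-type littermates. The 28 genes were taken by name, as familiar soluble enzymes, activators and membrane proteins of the lysosome, and none was picked by a threshold on its value. All 28 were measured, by 66 probe sets that name 1 gene, out of 18193 genes on the array. In the 3 Trim9 KO retinas exon 1 of Trim9 had been removed by Cre, brought in from CMV-cre mice, and the 3 WT retinas came from littermates. Both groups are labelled adult retina, and the label of adult was followed although a note on the handling of the samples speaks of embryos. No treatment separated the groups, and neither strain, age in weeks nor whether a sample was 1 retina or a pool was given. CMV-cre acts broadly in the body, so the loss of Trim9 was not limited to the retina. Biotin-labelled, amplified RNA of each sample was read on 1 Affymetrix mouse array. Each sample is described as coming from a mouse retina, but the labels do not say that the animals were separate, so p-values measure the spread between these 3 samples a group, which may be technical in part.

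The lysosome is the acidic compartment in which cells break down proteins, glycans, lipids and whole organelles. Its enzymes are made in the endoplasmic reticulum, are for the most part tagged with mannose 6-phosphate and are sorted to the lysosome by receptors for that tag, while LAMP proteins line its membrane. In the eye the compartment is best known from the pigment epithelium, which digests shed outer segments of photoreceptors, and loss of many of these enzymes causes storage diseases that reach retina and brain. Many lysosomal genes carry a short palindrome near their start, the CLEAR element, which the transcription factor TFEB and its relatives bind in mammalian cells.

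RefSeq promoter windows (assembly GRCm38.p6, 250 bases before to 50 after the start of a gene) were available for 25 of the 28 genes, and Ctsb, Asah1 and Npc1 had none in the table. The E-box CACGTG, which reads the same on both strands and forms the core of the CLEAR element, was found in the windows of 10 of the 25 genes (40.0%), against 2187 of 27025 genes in the whole table (8.09%). Some genes had more than 1 window, and counted by window it was in 10 of 28 (35.7%), against 7.15% of all windows. The longer palindrome TCACGTGA, which contains the E-box, was found for 2 of the 25 genes, Ctsa and Ctsd, against 1.12% of all genes. A still longer palindrome of 10 bases, which contains TCACGTGA, was found for 0 of the 25 genes, against 0.37% of all genes. It is so rare that its absence from 25 genes cannot show a difference from other genes. The E-box counts are thus of the core of the CLEAR element and not of this longest form. The following stretches are shown because they hold boxes of a membrane protein, 3 peptidases and a glycosidase whose values are given further on, with the palindrome in capitals, written 5′ to 3′ on the strand of the gene and ending before the start site.
Lamp1 (chr8:13159080-13159160, plus strand): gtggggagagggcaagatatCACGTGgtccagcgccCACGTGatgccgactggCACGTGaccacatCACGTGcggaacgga
Ctsd (chr7:142387899-142387946, minus strand): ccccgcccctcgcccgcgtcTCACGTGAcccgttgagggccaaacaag
Ctsa (chr2:164833740-164833772, plus strand): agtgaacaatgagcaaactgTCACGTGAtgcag
Naglu (chr11:101070001-101070046, plus strand): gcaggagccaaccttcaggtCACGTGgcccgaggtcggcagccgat
Lgmn (chr12:102439116-102439161, minus strand): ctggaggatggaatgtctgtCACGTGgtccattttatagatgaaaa
Lamp1, which codes for an abundant glycoprotein of the lysosomal membrane, had 4 boxes in this stretch, the farthest starting 61 and the nearest 15 bases upstream of the start site. The boxes of Ctsd, Naglu, Lgmn and Ctsa shown here started 99, 73, 49 and 13 bases upstream. Ctsa and Lgmn each had a further window, at another start site, that held no box. The remaining genes with a box were Arsa, Glb1, Sgsh, Gaa and Ctsl. A match is a description of the letters in these windows and not evidence of binding, and no factor was measured on these sites.

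The deposited values are linear intensities, taken here as log2(intensity + 16), and a gene was read by its brightest probe set, a probe set being a group of short oligonucleotides that together read 1 transcript. Trim9 itself was 10.56, 9.0 and 8.58 on the KO arrays, against 12.05, 10.80 and 10.72 on the WT arrays, with no overlap (log2 fold change -1.81, standard error 0.99). Of its other 3 probe sets, 1 was also separated (-2.48) and in 2 the genotypes overlapped (-0.77 and -0.58). Whether its probe sets lie within the deleted exon is not known here. Trim9 KO replicate 1 stood apart, with a Pearson's r across probe sets of 0.47 to 0.52 with the other arrays, against 0.66 to 0.89 among the other 5. The ratio of 3' over 5' signal of Actb, a measure of RNA degradation, was 2.80, 90.6 and 85.7 on KO replicates 1 to 3, against 19.8, 9.73 and 3.42 on WT replicates 1 to 3. The same ratio for Gapdh was 6.91, 7.17 and 7.29 on the KO arrays, against 8.10, 6.28 and -0.14 on the WT arrays (log2), so that the same 3 arrays were the highest but KO replicate 1 and WT replicate 2 lay close to them and WT replicate 3 alone was low. Array medians were 252 to 807 on the KO arrays and 218 to 675 on the WT arrays. Over the whole array the log2 fold change, Trim9 KO over WT, had a median of 0.18. It was 0.015 with quantile normalization and -0.12 with equal array medians, and the lysosomal genes are to be read beside these values. Rod markers, which define the tissue, were bright, with 5 of 5 measured between the 97.0 and the 99.8 percentile of gene signals. Their summed intensity was 358841 to 573232 on the KO arrays, against 623645 to 853568 on the WT arrays.

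The lysosomal genes were mostly bright in retina. Of the 28 genes, 21 were brighter than the median gene and 7 lay above the 90th percentile, with a median at the 72.5th percentile. The 3 highest signals belonged to Ids, Tpp1 and Ctsb, and the 3 lowest to Gusb, Glb1 and Neu1. Signals of different probe sets also depend on how well their oligonucleotides bind, so this is an order of signals and not of transcript numbers.

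Ids, the iduronate sulfatase that starts the breakdown of dermatan and heparan sulfate, read 15.36, 15.47 and 16.63 on the KO arrays, against 16.77, 15.44 and 15.51 on the WT arrays (log2 intensity). It was first or second among the 28 genes on every array, and each genotype held 1 array about 1 log2 unit above its other arrays. Tpp1, a tripeptidyl peptidase lost in a neuronal ceroid lipofuscinosis, read 14.58, 15.25 and 15.80 in KO retinas, against 16.47, 14.46 and 14.61 in WT retinas. The lysosomal cysteine protease Ctsb read 13.55, 14.47 and 14.91 on the KO arrays, against 15.69, 13.95 and 15.03 on the WT arrays. For these 3 genes the groups overlapped, and WT replicate 1 was the highest array. They were followed by the membrane protein Lamp1, the cholesterol carrier Npc2, the membrane protein Lamp2 and the sulfatase Arsb, all above the 90th percentile.

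At the lower end the order was loose. Of the 27 steps between neighbours in the order of mean signal, 2 were larger than the spread within genotype of both neighbours, and the steps ranged from 0.0029 to 1.04. Glb1, the lysosomal beta-galactosidase, read 6.48, 9.31 and 9.47 in KO retinas, against 5.65, 10.77 and 9.46 in WT retinas, and ranked from 17th to 26th among the 28 genes depending on the array. The median percentile of signal was 95.1 for the membrane and cholesterol export proteins, 83.5 for the sulfatases, 81.7 for the lipid hydrolases and their activators, 71.2 for the peptidases and 54.6 for the glycosidases. No glycosidase lay above the 72.9th percentile.

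**Figure D1:**
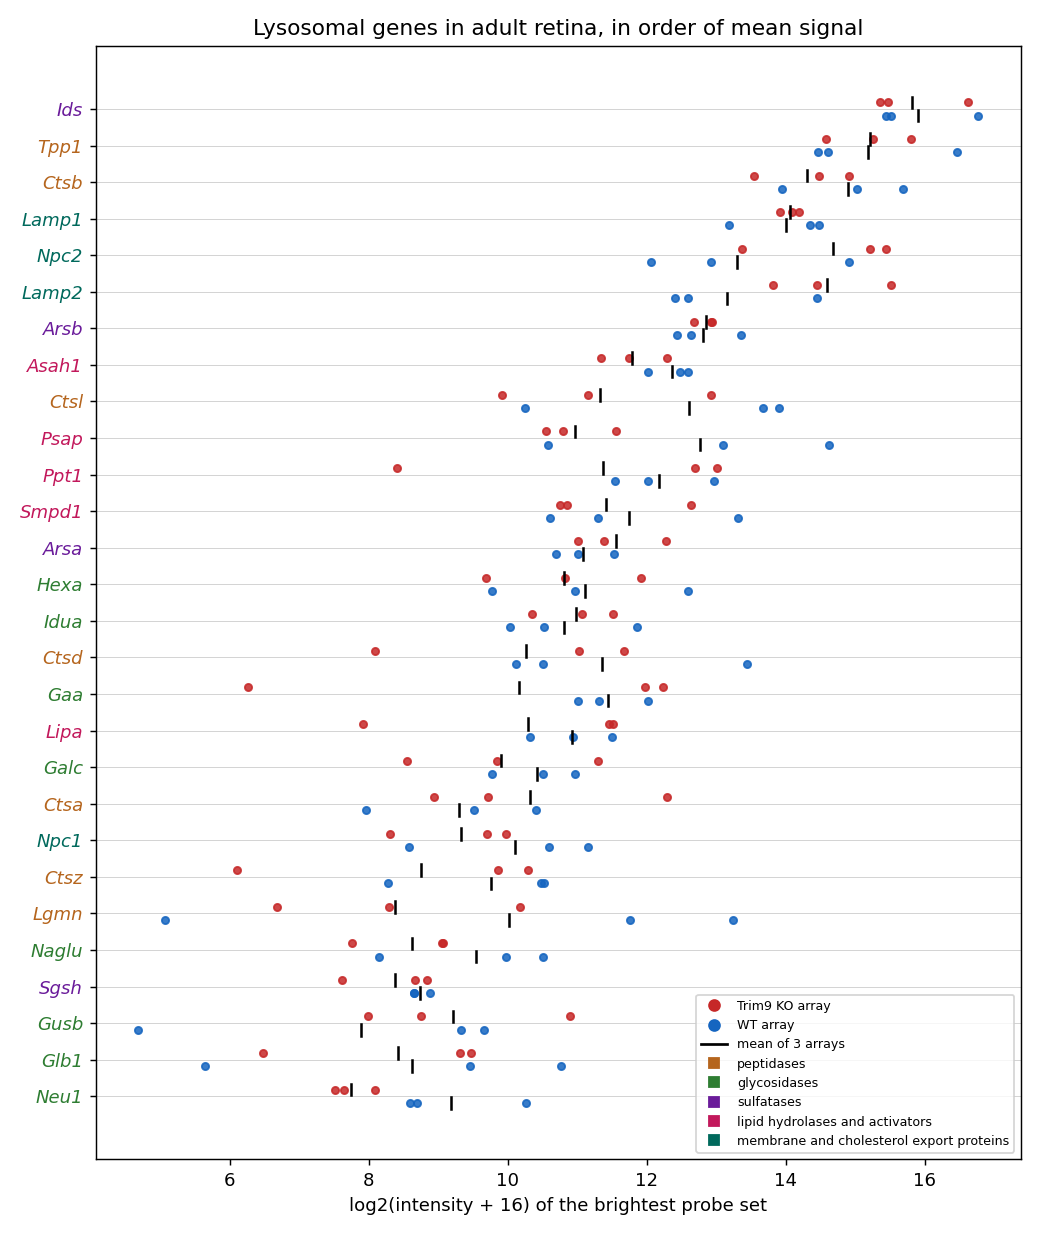
Log2(intensity + 16) of the brightest probe set (x axis) of each of 28 lysosomal genes (rows, in order of mean signal, with names coloured by group), with 1 point per array, Trim9 KO in red above WT in blue, and the mean of 3 arrays as a black tick. The ranges of red and blue points overlap in every row except that of Neu1 at the bottom, where all 3 KO points lie to the left of all 3 WT points.

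The comparison of genotypes asked whether the loss of Trim9 was accompanied by a change in the RNA of the lysosome. Of the 28 genes, 19 had a lower mean and 9 a higher mean in Trim9 KO retinas than in WT retinas, with a median log2 fold change of -0.43, where 44.8% of all genes had a lower and 55.2% a higher mean (median 0.14). Log2 fold changes ran from -1.79 for Psap to 1.44 for Lamp2. No gene passed limma at an adjusted p of 0.05, nor did any of the 45037 probe sets (0%), and the lowest adjusted p was 0.999. At an unadjusted p under 0.05 the count was 0 of 28 genes, against 2.56% of all genes and 2.88% of probe sets. It was 4 of 28 with array weights, 2 without WT replicate 1 and 1 with a trend and robust prior, where 7.05%, 3.29% and 2.53% of all genes were under 0.05, and 0 in the other alternatives. All 28 of the 95% intervals held 0, and their half-widths were 1.98 to 4.05 on the log2 scale. These match an unadjusted p of 0.05, so that smaller changes than these were not detectable with this number of arrays even without adjustment. Larger changes could still fail after adjustment.

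The split of directions rested in part on 1 array. Without Trim9 KO replicate 1, 13 genes had a lower and 15 a higher mean, and the median was 0.0018, against a median of 0.013 for all probe sets. With equal array medians, 23 had a lower and 5 a higher mean (median -0.76), beside a median of -0.12 for all probe sets. Averaging the probe sets of each gene, 18 were lower and 10 higher (median -0.22). The spread within genotype was as large as for other genes, with a median SD of 1.2 for the 28 genes and 1.21 for all genes (log2).

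**Figure D2:**
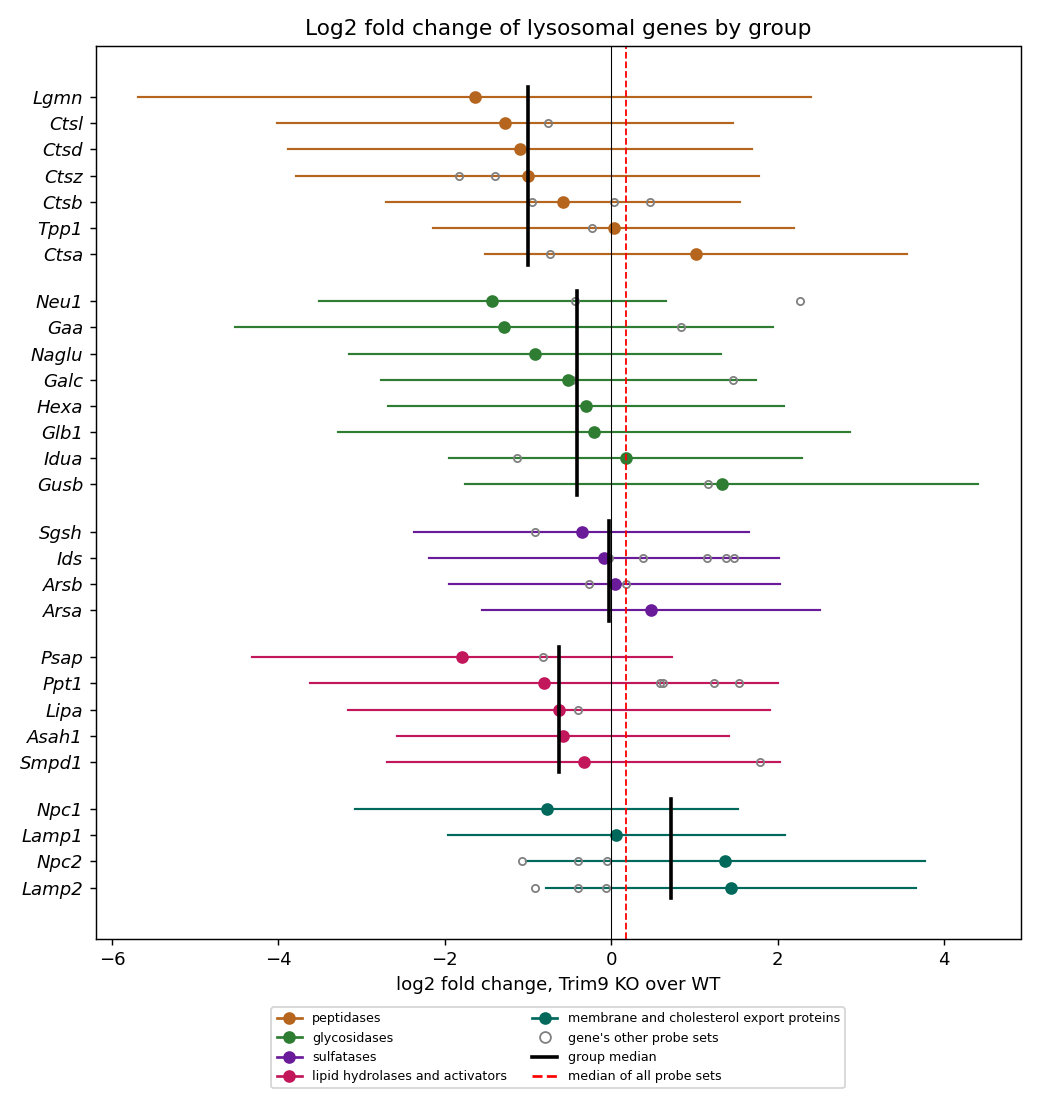
Log2 fold change, Trim9 KO over WT (x axis), of 28 lysosomal genes (rows, by group). Filled points are the brightest probe set with its 95% limma interval, open grey points are the other probe sets of the same gene, black bars are group medians and a dashed red line marks 0.18, the median over all probe sets. Every interval crosses 0, and the group medians run from -1.005 for the peptidases to 0.72 for the membrane and cholesterol export proteins.

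Of 7 peptidases, 5 had a lower and 2 a higher mean in KO retinas, with a median log2 fold change of -1.005 (-0.20 without KO replicate 1 and -1.71 without WT replicate 1). Ctsl, a cysteine protease of broad specificity, read 12.93, 11.16 and 9.91 on the KO arrays, against 10.25, 13.91 and 13.67 on the WT arrays (log2 fold change -1.27, standard error 1.25, exact permutation p = 0.4, two-sided). The highest KO array lay between the WT arrays, and the groups overlapped. Legumain, Lgmn, which cuts after asparagine and matures other cathepsins, had the lowest peptidase value (-1.64, standard error 1.84) and the widest WT range of the 28 genes. It read 10.18, 6.68 and 8.29 in KO retinas, against 5.08, 11.76 and 13.24 in WT retinas, and its log2 fold change was -0.034 without WT replicate 3 and -4.11 without WT replicate 1. Lgmn was singled out after its values were seen.

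The aspartic protease Ctsd was at -1.09 and the carboxypeptidase Ctsz at -1.005 (standard error 1.27 each). For Ctsz the value was 0.32 without KO replicate 1, which at 6.11 lay far below the other KO arrays (9.86 and 10.30). Ctsb was at -0.58 and Tpp1 at 0.029. The serine carboxypeptidase Ctsa, which also protects beta-galactosidase and neuraminidase from breakdown, had the highest peptidase value. It read 12.30, 9.71 and 8.94 on the KO arrays, against 9.51, 10.41 and 7.96 on the WT arrays (log2 fold change 1.02, standard error 1.16, exact permutation p = 0.5, two-sided). KO replicate 1 was above all other arrays, and without it the log2 fold change was 0.032. Its other probe set was at -0.74.

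Of 8 glycosidases, 6 had a lower and 2 a higher mean in KO retinas, with a median of -0.41. Neu1, the sialidase that removes terminal sialic acids, was the 1 gene of the 28 whose groups did not overlap. It read 7.52, 8.10 and 7.64 on the KO arrays, against 8.60, 10.26 and 8.69 on the WT arrays (log2 fold change -1.43, standard error 0.95, exact permutation p = 0.1, two-sided, the smallest that 3 arrays against 3 allow). The background of such separation was 2.89% of all genes with every KO array the lower and 5.35% with every KO array the higher, and 1 and 0 of the 28 genes were of these kinds. The other probe sets of Neu1 were at -0.44 and 2.28, and the mean of its probe sets was at 0.14.

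Gusb, the beta-glucuronidase, read 10.90, 8.76 and 7.99 on the KO arrays, against 4.68, 9.66 and 9.33 on the WT arrays (log2 fold change 1.33, standard error 1.41, exact permutation p = 0.7, two-sided). WT replicate 1 was the low array, and without it the value was -0.28. The acid alpha-glucosidase Gaa, which breaks down glycogen in lysosomes, was at -1.29 (standard error 1.47) with KO arrays at 6.26, 12.24 and 11.98 and WT arrays at 11.31, 11.01 and 12.02. Here KO replicate 1 alone was low, and the value was 0.66 without it. Naglu, of heparan sulfate breakdown, was at -0.92, the galactosylceramidase Galc at -0.51, the hexosaminidase subunit Hexa at -0.30, Glb1 at -0.21 and the iduronidase Idua at 0.17. Further probe sets were at 1.16 for Gusb, 0.84 for Gaa, 1.46 and -0.47 for Galc and -1.13 for Idua.

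Of 4 sulfatases, 2 had a lower and 2 a higher mean (median -0.023), and their fold changes lay within 0.48 of 0. The cerebroside sulfatase Arsa read 12.27, 11.39 and 11.02 on the KO arrays, against 11.02, 10.70 and 11.53 on the WT arrays (log2 fold change 0.48, standard error 0.93). Sgsh, the heparan N-sulfatase, read 7.62, 8.84 and 8.67 in KO retinas, against 8.66, 8.66 and 8.88 in WT retinas (-0.35, standard error 0.92). Groups overlapped for both, and for Sgsh the difference came from KO replicate 1, without which it was 0.023. Arsb, of dermatan and chondroitin sulfate breakdown, was among the steadiest genes of the list, with means of 12.85 ± 0.15 in KO and 12.81 ± 0.48 in WT retinas (SD, n = 3 each), and its interval ran from -1.94 to 2.03.

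All 5 lipid hydrolases and activators had a lower mean in KO retinas, with a median of -0.63, whereas 44.8% of all genes did. This held for the brightest probe sets and not for all others, since 4 of the 5 probe sets of Ppt1 and 1 of the 2 of Smpd1 had a higher mean, and with averaged probe sets both genes had one (0.64 and 0.73). Psap, the precursor of the saposins that present sphingolipids to their hydrolases, had the lowest value of the 28 genes. It read 11.56, 10.80 and 10.55 on the KO arrays, against 10.58, 13.10 and 14.62 on the WT arrays (log2 fold change -1.79, standard error 1.15, limma adjusted p = 0.999, exact permutation p = 0.3, two-sided). The KO arrays lay close together and WT replicate 1 lay among them, so that the difference came from WT replicates 2 and 3, and it was -0.86 without WT replicate 3 and -2.89 without WT replicate 1. Its other probe set was at -0.82 and followed the same arrays (r = 0.94 over 6 arrays).

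The palmitoyl-protein thioesterase Ppt1 was at -0.81, the acid lipase Lipa at -0.63, the acid ceramidase Asah1 at -0.58 and the acid sphingomyelinase Smpd1 at -0.33. Asah1 was read on a narrow range, 11.74, 11.35 and 12.29 on the KO arrays against 12.48, 12.03 and 12.60 on the WT arrays. For Ppt1 and Lipa the lower mean came from KO replicate 1 (8.41 and 7.92), and without it their values were 0.68 and 0.56. The KO arrays of Lipa other than replicate 1 were at 11.51 and 11.45, against 11.49, 10.32 and 10.95 on the WT arrays. The median of the group was then -0.55.

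Of 4 membrane and cholesterol export proteins, 3 had a higher and 1 a lower mean in KO retinas (median 0.72). The mean log2 intensity of the 4 genes was 12.77, 13.72 and 13.02 on the KO arrays, against 12.61, 12.57 and 12.74 on the WT arrays, so that KO replicate 1 and WT replicate 3 were nearly level. Lamp2, a membrane glycoprotein with a splice form that takes part in chaperone-mediated autophagy, had the highest value of the 28 genes. It read 13.81, 15.52 and 14.46 on the KO arrays, against 12.60, 14.46 and 12.41 on the WT arrays (log2 fold change 1.44, standard error 1.01, exact permutation p = 0.2, two-sided). KO replicates 1 and 3 lay between WT replicate 2 and the other WT arrays or level with it. The other 3 probe sets of Lamp2 were at -0.92, -0.40 and -0.06, and the mean of its probe sets was at 0.015. Lamp2 is read here by a probe set of a type whose oligonucleotides can match more than 1 transcript. The same holds for Gaa, Ctsz and Lipa and, among the further genes named below, for Dnase2a, Grn, Gga1 and Sumf1.

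Npc2, the soluble protein that hands cholesterol to the membrane, read 13.37, 15.45 and 15.22 on the KO arrays, against 14.92, 12.06 and 12.93 on the WT arrays (log2 fold change 1.37, standard error 1.09). WT replicate 1 was as high as the KO arrays, and the groups overlapped. Npc1, the membrane protein that receives that cholesterol, read 9.70, 9.98 and 8.31 in KO retinas, against 8.58, 10.59 and 11.16 in WT retinas (-0.78, standard error 1.05). Lamp1 was at 0.064, with KO arrays at 14.19, 13.92 and 14.10 and WT arrays at 14.35, 13.19 and 14.48. After averaging the probe sets of each gene the median of the group was -0.011, because Lamp2 and Npc2 each had 3 further probe sets with a lower mean.

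**Figure D3:**
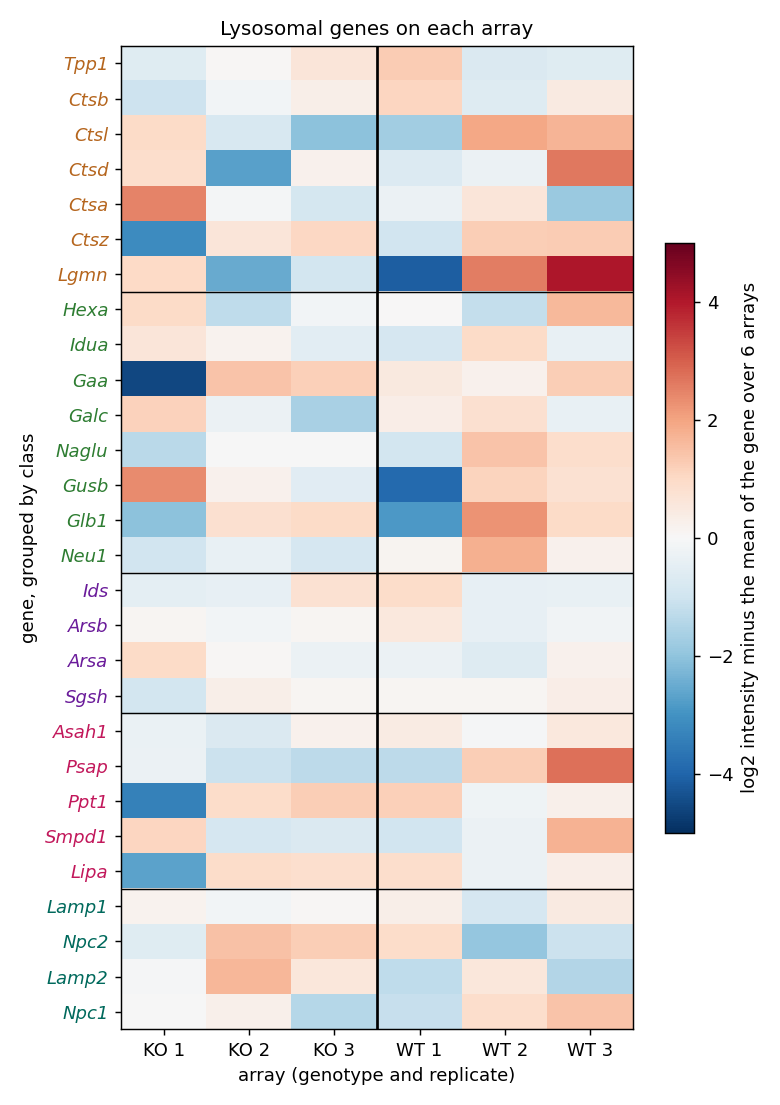
Log2 intensity of each of 28 lysosomal genes (rows, by group) on each array (columns, Trim9 KO left of WT), minus the mean of the gene over the 6 arrays, red for higher and blue for lower. KO replicate 1 is the lowest array for 9 genes and WT replicate 3 the highest for 10, while no column block of 3 is red or blue throughout a group.

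Array by array, high and low values of the lysosomal genes lay in both genotypes. WT replicate 3 was the highest array for 10 of the 28 genes (35.7%, against 13.3% of all genes), and KO replicate 1 the lowest for 9 (32.1%, against 22.3%). The mean log2 intensity of the 28 genes was 10.95, 11.20 and 11.23 on the KO arrays, against 10.85, 11.65 and 11.92 on the WT arrays, with WT replicate 1 below all KO arrays. Psap, Ctsl and Lgmn shared a pattern in which WT replicates 2 and 3 and KO replicate 1 were the 3 highest arrays. In Npc2 the order was turned round, with KO replicates 2 and 3 and WT replicate 1 the highest. These same arrays, KO replicates 2 and 3 and WT replicate 1, were those with the larger Actb ratio, at 90.6 and 85.7 on the KO arrays and 19.8 on WT replicate 1, against 2.80 on KO replicate 1 and 9.73 and 3.42 on WT replicates 2 and 3. The part of RNA degradation in these patterns was not tested. These 4 genes were picked out after their values were seen.

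Probe sets of the same gene often disagreed. Of the 19 genes with several probe sets, 13 (68.4%) had at least 1 with a lower and 1 with a higher mean in KO retinas, against 62.4% of all such genes. Of 71 pairs of probe sets of the same gene, 27 (38.0%) had a negative Pearson's r over the 6 arrays, against 43.9% of pairs across all genes. The same RNA extracts underlie every point, and the r values are descriptions. Among the 66 probe sets, 41 had a lower and 25 a higher mean, where 43.6% of all probe sets had a lower and 56.4% a higher mean, and 0 had an unadjusted p under 0.05.

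Ctsb and Npc2 are given as examples, chosen after their values were seen. The brightest Ctsb probe set was highest on WT replicate 1, at 15.69, whereas another was lowest there, at 4.42, with 10.78, 6.71 and 5.63 on the KO arrays and 8.94 and 12.61 on the other WT arrays. For Npc2, the second brightest probe set read 12.04, 9.24 and 10.21 on the KO arrays, against 8.71, 11.73 and 12.23 on the WT arrays, close to a mirror image of the brightest. Of the 6 probe sets of Ids, 1 had all KO arrays above all WT arrays (11.06, 11.23 and 10.93, against 9.09, 10.25 and 9.73, a log2 fold change of 1.38), while the brightest was at -0.087. Separation of this kind was seen in 5.16% of all probe sets, and the opposite kind in 2.76%, while among the 66 probe sets here the counts were 1 and 1.

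Psap, Ctsl, Ctsz, Sgsh and Lipa had a lower mean in every probe set, and Gusb a higher mean in both of its probe sets. Of the 15 alternatives, 3 leave the log2 fold change of a brightest probe set as it is, and under the other 12 the sign of 11 of the 28 genes held (39.3%, against 43.3% of all genes). Of these, 8 were lower (Ctsb, Ctsd, Ctsl, Lgmn, Psap, Asah1, Npc1 and Naglu) and 3 higher (Ctsa, Lamp2 and Arsa). Some came close to 0, with Ctsd at -0.011 without KO replicate 2, Lgmn at -0.034 without WT replicate 3, Ctsa at 0.032 without KO replicate 1 and Lamp2 at 0.015 with averaged probe sets.

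**Figure D4:**
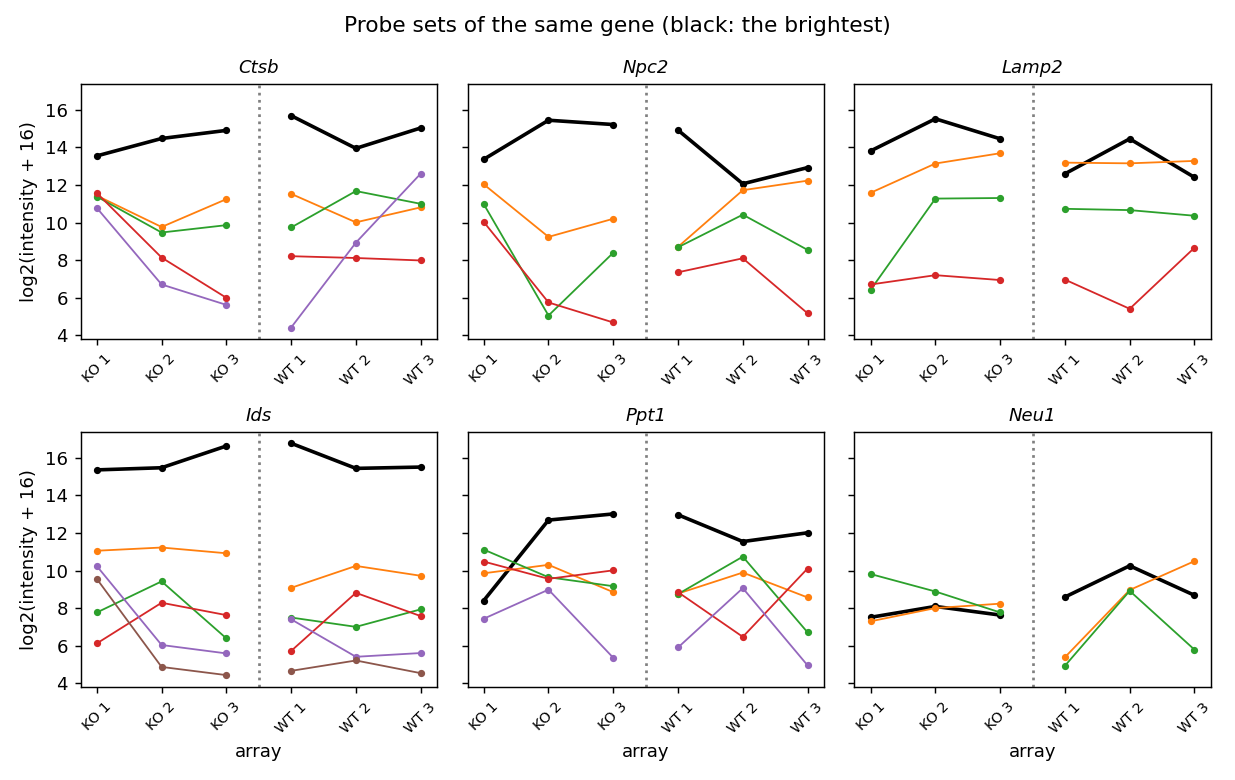
Log2(intensity + 16) (y axis) of every probe set of Ctsb, Npc2, Lamp2, Ids, Ppt1 and Neu1 on each array (x axis, Trim9 KO left of WT), with 1 colour per probe set and the brightest in black. Lines only join the points of 1 probe set within a genotype, as replicates have no order. In Npc2 the brightest probe set is highest on KO replicates 2 and 3 and WT replicate 1, where the next brightest is lowest.

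Genes with and without an E-box in the promoter lay on both sides of 0. Of the 10 genes with a box, 7 had a lower and 3 a higher mean (median -0.64), and of the 15 genes with a window and no box, 9 had a lower and 6 a higher mean (median -0.30). Log2 fold changes ran from -1.64 to 1.02 with a box and from -1.79 to 1.44 without. The genes whose promoters are shown spread over that range, from Lgmn (-1.64), Ctsd (-1.09) and Naglu (-0.92) through Lamp1 (0.064) to Ctsa (1.02).

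The genes of the factors that bind such boxes overlapped between genotypes. Of 4 genes of this family, 3 had a lower mean in KO retinas (median -0.97, and -0.35 without KO replicate 1). Mitf, which also drives pigment cell genes, read 9.35, 7.04 and 11.37 on the KO arrays, against 11.02, 11.40 and 10.64 on the WT arrays (log2 fold change -1.77, standard error 1.17). Its value was -0.66 without KO replicate 2, -2.82 without KO replicate 3 and -0.53 with averaged probe sets. Tfeb was at -0.92 and Tfe3 at -1.03, where KO replicate 1 was low in both and the values without it were -0.27 and 0.11. Tfec, at the 0.412th percentile of gene signals, was at 0.53 and, without KO replicate 1, at -0.43. KO replicate 3 of Mitf was level with the WT arrays, and none of the 4 had an unadjusted p under 0.05.

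Other genes of the lysosome were taken from a list of 81, of which 74 were measured. Of these, 38 had a lower and 36 a higher mean in KO retinas, with a median log2 fold change of -0.05, against 0.14 for all genes. No gene passed limma. An unadjusted limma p under 0.05 was found for 1 of the 74, against 2.56% of all genes. Every KO array lay above every WT array for 9 genes and below for 1, shares of 12.2% and 1.35% beside 5.35% and 2.89% of all genes. The 9 were 4 with quantile normalization and 1 with equal array medians, where 5.40% and 3.64% of all genes had every KO array above.

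The 1 gene with an unadjusted p under 0.05 was a sorting adaptor. Gga2, which recruits cargo of the mannose 6-phosphate receptors at the Golgi, read 6.07, 7.38 and 7.78 on the KO arrays, against 9.47, 9.996 and 9.58 on the WT arrays (log2 fold change -2.61, standard error 0.94, limma p = 0.0181, adjusted p = 0.999, exact permutation p = 0.1, two-sided). The lowest WT array was above all KO arrays, and its value was -2.96 to -2.11 when an array was left out. Its relative Gga1 read 10.56, 7.42 and 7.01 in KO retinas, against 6.44, 6.78 and 5.58 in WT retinas (2.06, standard error 1.13), but KO replicate 1 was far above the rest, and the value was 0.95 without it and 0.43 with averaged probe sets. The receptor genes M6pr and Igf2r were at -0.72 and 0.18, and of the 13 sorting genes 7 had a lower and 6 a higher mean (median -0.21).

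Of 22 further hydrolases, 9 had a lower and 13 a higher mean (median 0.21). The acid nuclease Dnase2a read 12.09, 12.16 and 12.51 on the KO arrays, against 10.93, 10.51 and 10.04 on the WT arrays (log2 fold change 1.76, standard error 0.90), with no overlap. Ctsk, the collagen-degrading cathepsin of osteoclasts, was dim and had the lowest value of the group (-1.35, standard error 0.96). Among 3 activators and soluble cofactors, progranulin, Grn, read 14.14, 15.01 and 14.20 in KO retinas, against 13.33, 13.90 and 11.98 in WT retinas (1.38, standard error 0.96), but the mean of its probe sets was at -0.24. The sulfatase-modifying enzyme Sumf1 was at -0.31, with KO replicate 1 at 7.16 against 13.07 and 12.54 on the other KO arrays.

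Of 16 further membrane proteins and transporters, 9 had a lower and 7 a higher mean (median -0.09). The cystine exporter Ctns was at 1.98 (standard error 1.15) with KO arrays at 9.89, 9.39 and 8.81 and WT arrays at 8.52, 5.03 and 8.60. WT replicate 2 was close to the floor, with an intensity of 16.8, and the value was 0.81 without it. Laptm4a was at -2.02 (standard error 1.22), with KO replicate 1 at 7.39 and WT replicate 3 at 13.15 as its extremes. Of 16 subunits and accessory proteins of the vacuolar ATPase, which acidifies the lysosome and also synaptic vesicles, 8 had a lower and 8 a higher mean (median 0.06). Atp6v1h was at -2.77 (standard error 1.37), but at -1.36 without KO replicate 1, -1.77 without WT replicate 3 and -1.02 with averaged probe sets. Atp6v1g1 was at 1.23 (standard error 0.95).

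Markers of single cell types were measured beside these genes, and they moved in both directions. Of 5 rod markers all 5, and of 6 Müller glia markers all 6, had a lower mean in KO retinas (medians -0.57 and -1.27), with summed intensities of the Müller glia markers of 90024 to 188654 on the KO arrays, against 125304 to 378172 on the WT arrays. Of 5 endothelial markers 4 had a higher mean (median 1.01), with summed intensities of 1728 to 4375 on the KO arrays, against 1232 to 4938 on the WT arrays. Of 9 markers of pigment epithelium and melanocytes, all 9 had a higher mean in KO retinas (median 0.87), and their summed intensity was 389703 to 1368520 on the KO arrays, against 74923 to 480383 on the WT arrays. Most of that sum came from the transthyretin gene Ttr, at 20.37, 18.91 and 18.26 on the KO arrays against 18.84, 17.55 and 16.04 on the WT arrays (log2). Of 12 microglia and macrophage markers, 7 had a higher and 5 a lower mean (median 0.51), with summed intensities of 26284 to 41219 on the KO arrays, against 8376 to 29161 on the WT arrays. Csf1r made up most of the microglia sum on the KO arrays. It read 15.06, 14.55 and 14.33 there, against 13.08, 14.52 and 11.72 on the WT arrays (log2). Among the 5 microglia and macrophage markers with a lower mean, C1qc, C1qa and Tyrobp were at -1.53, -1.18 and -0.62. Cx3cr1 and P2ry12, which define resident microglia, lay at the 20.3th and 22.6th percentile of gene signals. No marker was at 0. The part of these cells in the values of the lysosomal genes was not tested, and in whole retina fewer cells of a type and less RNA per cell cannot be told apart.

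**Figure D5:**
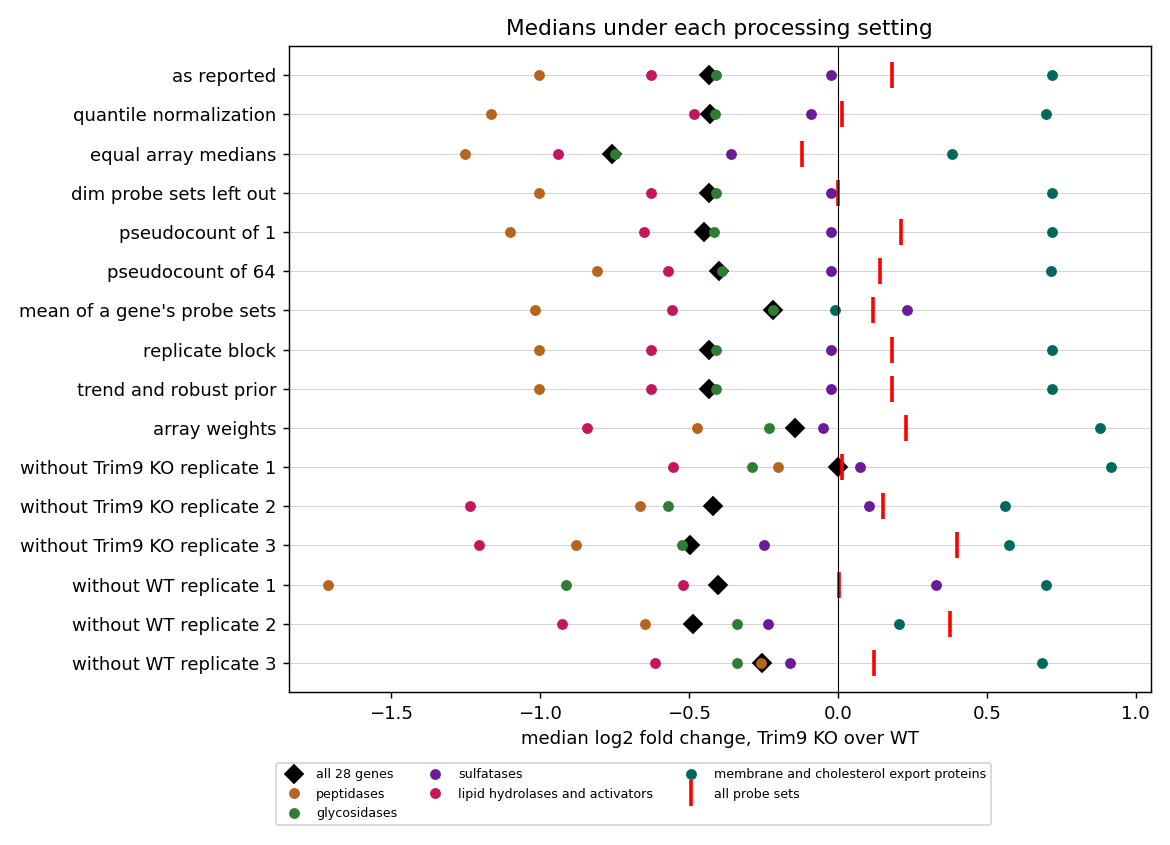
Median log2 fold change, Trim9 KO over WT (x axis), of the 28 lysosomal genes (black diamonds), of their 5 groups (coloured points) and of all probe sets (red bars) under each way of processing (rows). The medians of the peptidases, the glycosidases and the lipid hydrolases and activators lie below 0 in every row (the last from -1.24 to -0.48), and the median of the 28 genes lies at 0.0018 without Trim9 KO replicate 1.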

How the data were processed

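Adult retinas of 3 Trim9 KO and 3 WT littermates were measured on 6 arrays. The deposited table holds linear intensity values that the authors scaled on each array to the same trimmed mean (1500 after 2% at each end were left out). MAS5 is the tool in the submitters' processing notes and RMA the one in the methods of the study, and the linear scale is that of MAS5. Scanner files were not used here. After a pseudocount of 16 the log2 scale was used throughout. Without 64 controls, 45037 probe sets entered limma 3.58.1 (lmFit, eBayes) under R 4.3.3, unfiltered and unblocked. P-values were adjusted by Benjamini-Hochberg. Each gene was read by its brightest probe set, by mean log2 intensity over 6 arrays. Probe sets were named from the platform annotation, and 99.4% of those naming 1 gene were matched to the reference by gene number. The fit was tested on simulated data. All 28 genes are named, with array values by size of the limma statistic, non-overlap and rank of signal; further genes of the pathway were named by their limma statistic. Array values of Gaa, Lgmn, Npc2, Lamp1, Asah1, Lipa and of single further probe sets were added after they were seen. Members, groups and lists were chosen with earlier results of these data known. The number of arrays limits the precision. Python 3.11.15 and matplotlib 3.10.9 made the figures.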

Additional observations from a re-analysis of the deposited data

How the results depend on the processing

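The 15 alternatives were other scalings, a filter on dim probe sets, other pseudocounts, averaging the probe sets of each gene, a replicate block, a trend with a robust prior, array weights, and leaving out each array. In all of them limma's adjusted p was above 0.05 for every probe set (0 calls), and an unadjusted p under 0.05 was found for 1.90% to 8.08% of the features tested, against 2.88% as reported. With equal array medians, 5 of the 28 genes had a higher mean and the sulfatase median was -0.36. Of the 28, 2 were then separated with KO the lower and 0 with KO the higher, beside 3.47% and 3.64% of all genes. The median of the other lysosomal genes was -0.38, and of these 74, 3 had every KO array below and 1 every KO array above. After quantile normalization 4 of the other genes had every KO array above, beside 5.40% of all genes. With averaged probe sets, 0 of the 28 genes had every KO array below, beside 2.67% of all genes. Then 4 of the other genes had every KO array above, beside 4.91% of all genes. Medians were 0.23 for sulfatases and -0.011 for membrane and cholesterol export proteins.

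When an array was left out, 7 to 15 of the 28 genes had a higher mean, 1 to 7 had every KO array below and 0 to 2 every KO array above, beside 4.51% to 10.8% of all genes below and 7.77% to 14.7% above in these smaller comparisons, and the median was -0.50 to 0.0018. Medians were then -1.71 to -0.20 for peptidases, -0.25 to 0.33 for sulfatases and 0.20 to 0.92 for membrane and cholesterol export proteins, and 1 to 15 other lysosomal genes lay below and 9 to 15 above. Of 420 values of the 28 genes under the alternatives, 48 had the other sign and 4 moved by more than the spread within genotype. The 420 include values of the 3 alternatives that leave the log2 fold change as it is, which could neither change sign nor move.

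Whether replicate numbers pair the samples is not known. Deviations of same-numbered arrays correlated at -0.23, -0.08 and 0.03, and no array correlated best with its own number. With 3 arrays in a genotype such correlations can neither show nor exclude pairing. The replicate block cannot change a log2 fold change, as each number occurs once in each genotype, so the median of the 28 genes stayed at -0.43. With the block 864 probe sets had an unadjusted limma p under 0.05 (1.92%, against 2.88% without it).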
